A study of Mus musculus with 6 samples.

Results

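RNA-seq of differentiating DM1 myoblasts was used to describe 8 genes with large rises under miR-322/-503 overexpression: Cyp2e1, Clca3b, Adgrd1, Hdc, Efhd1, Mgam, Serpinb9b and Pla1a. They were selected on the counts of these same 6 libraries, out of the 55421 genes of the deposited table, because every miR-322/-503 library lay far above every control library, so their rises are given below as values and were not tested. What was tested are genes that start within 500 kb of one of them, relatives and pathway partners, and markers of cell types. They numbered 259, 169 and 62, of which 111, 81 and 22 passed the filter on low counts, and none were used in the choice. Both groups descended from C2C12 (mouse myoblasts that form myotubes once serum is lowered), and both carried the CUG200 construct, an expanded repeat behind GFP that models myotonic dystrophy type 1 (DM1). The control line (CUG200-ctrl) held the empty pLL4.0 vector and the other line (CUG200-m) held pLL4.0 with the miR-322/-503 fragment, both after drug selection. Each group had 3 libraries, all from day 4 of differentiation. Each group was a single line, so what the microRNAs did and what arose when a line was made cannot be told apart. The study's methods state biological and technical replicates for its assays in general, but nothing in the labels ties these libraries to separate cultures, so the p-values below measure the spread between these libraries, which may be technical.

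The 8 genes lie on 8 different chromosomes and do unrelated work. Cyp2e1 is the ethanol-inducible cytochrome P450 of the liver. Clca3b belongs to the calcium-activated chloride channel regulators, which are typical of epithelia. Adgrd1 (also called GPR133) is an adhesion G protein-coupled receptor, a class of large receptors that cut themselves and can be activated by their own tethered peptide. Hdc, histidine decarboxylase, is the enzyme that makes histamine and is best known from mast cells and stomach. Efhd1 is a calcium-binding EF-hand protein of mitochondria. Mgam, maltase-glucoamylase, digests starch fragments at the intestinal brush border. Serpinb9b is one of the intracellular clade B serpins, protease inhibitors that are expanded in rodents and whose relative Serpinb9 blocks granzyme B. Pla1a is a secreted phospholipase that releases lysophosphatidylserine. None of them is a usual marker of skeletal muscle.

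The overexpressed microRNAs are shown because their seed, bases 2 to 8 in capitals, guides which messages they pair with. MicroRNAs guide silencing complexes mostly to 3′UTRs and lower the messages they bind. Both sequences are from RefSeq with positions on GRCm38.p6, and they lie close together on the minus strand of chromosome X, at chrX:53054306-53054327 and chrX:53054027-53054049.
mmu-miR-322-5p: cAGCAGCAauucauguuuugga
mmu-miR-503-5p: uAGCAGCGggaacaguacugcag
The seeds share all but the last of their 7 bases. The host genes themselves could not be followed in these libraries, since the estimated counts of Mir322 were 1, 7 and 2 (control) against 17, 0 and 3 (miR-322/-503), and those of Mir503 were 1, 1 and 2 against 6, 4 and 5.

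Library totals lay between 73532084 and 92157388 estimated counts. Each read pair made up about 4 estimated counts, which gives 18383021 to 23039347 read pairs per library. Levels are given as CPM (counts scaled to the TMM-normalized library size) for 1 gene across libraries, and as TPM (the deposited share of transcripts, which corrects for length) for comparisons between genes. As a check of the labelled cell type, all 12 muscle markers were tested and were at 4348 to 4718 CPM in sum in the control and 5726 to 6027 CPM in the miR-322/-503 libraries. A gene was called when edgeR's quasi-likelihood test gave it an adjusted p under 0.05 and its log2 fold change lay beyond 1 in size, up or down.

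Cyp2e1, Clca3b and Adgrd1 went from near absence to a clear signal. Cyp2e1 (ENSMUSG00000025479, chr7:140763739-140774987 of GRCm38, plus strand, up to 9 exons) had 0 CPM in all 3 control libraries and 46.1, 56.3 and 50.9 CPM in the miR-322/-503 libraries. With the control set to a floor of 3 read pairs per library, the mean of 51.1 ± 5.07 CPM (SD, n = 3) was at least 346-fold higher. No read of the gene was counted in any control library, so the groups could not be further apart at this depth. In a bulk sample, expression in more cells and more RNA per cell cannot be told apart.

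Clca3b (ENSMUSG00000037033, chr3:144822623-144849357, minus strand, up to 14 exons) had 0.0517, 0.0969 and 0 CPM in the control, which is 1, 2 and 0 read pairs, and 13.9, 13.6 and 14.97 CPM with miR-322/-503. The ratio of the means was 286, with a 95% counting interval from 98.2 to 1399. It ran from 191 to 548 with 1 library left out, and was highest without control replicate 2. Its miR-322/-503 replicates differed little, with a coefficient of variation of 5.06%.

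Adgrd1 (ENSMUSG00000044017, chr5:129096750-129204599, plus strand, up to 26 exons) had 0.155, 0 and 0.0947 CPM in the control and 19.8, 26.1 and 21.0 CPM with miR-322/-503. The ratio of the means was 268, with a 95% counting interval from 115 to 833 on 5 control read pairs, and it ran from 179 to 471 with 1 library left out, highest without control replicate 1. Its miR-322/-503 libraries varied most of the 8 genes, with a coefficient of variation of 14.9%. Such intervals and floors cover counting error only, and no molecular identifiers are described.

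This off-to-on pattern was rare in the whole table. Of the 28405 genes with a count in any library, 3 had no control library above 3 read pairs and every miR-322/-503 library at 10 CPM or more, which is 0.0106% of them, and these 3 were Cyp2e1, Clca3b and Adgrd1. This count describes the choice of genes and supports nothing further.

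Hdc, Efhd1, Mgam, Serpinb9b and Pla1a were already transcribed in the control line. Hdc (ENSMUSG00000027360, chr2:126593667-126619299, minus strand) had 0.310, 0.375 and 0.391 CPM in the control and 56.2, 50.1 and 48.3 CPM with miR-322/-503, a ratio of 144 between means of 0.359 ± 0.0429 and 51.5 ± 4.13 CPM (SD, n = 3). The control level was low but even in CPM, with a spread of 11.9% of its mean, while the deposited TPM were uneven at 0.249, 0.196 and 0.658.

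Efhd1 (ENSMUSG00000026255, chr1:87264363-87310839, plus strand, up to 5 exons) had 3.88, 3.63 and 3.97 CPM in the control and 85.4, 94.1 and 82.0 CPM with miR-322/-503, a ratio of 22.8. Serpinb9b (ENSMUSG00000021403, chr13:33027416-33041884, plus strand, up to 7 exons) had 4.55, 4.08 and 3.98 CPM against 123, 135 and 119 CPM, a ratio of 29.9. The groups of both genes lay far apart.

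Mgam (ENSMUSG00000068587, chr6:40628831-40769123, plus strand) is the longest message, with up to 48 exons, and had 7.03, 7.36 and 7.56 CPM in the control and 105, 112 and 106 CPM with miR-322/-503, a ratio of 14.8. Pla1a (ENSMUSG00000002847, chr16:38396117-38433145, minus strand, up to 11 exons) had 25.997, 24.5 and 24.95 CPM against 140, 135 and 141 CPM, a ratio of 5.52. Pla1a had the smallest ratio of the 8 genes. Across all 8 genes, the coefficient of variation between the miR-322/-503 libraries lay between 2.33% and 14.9%.

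**Figure D1:**
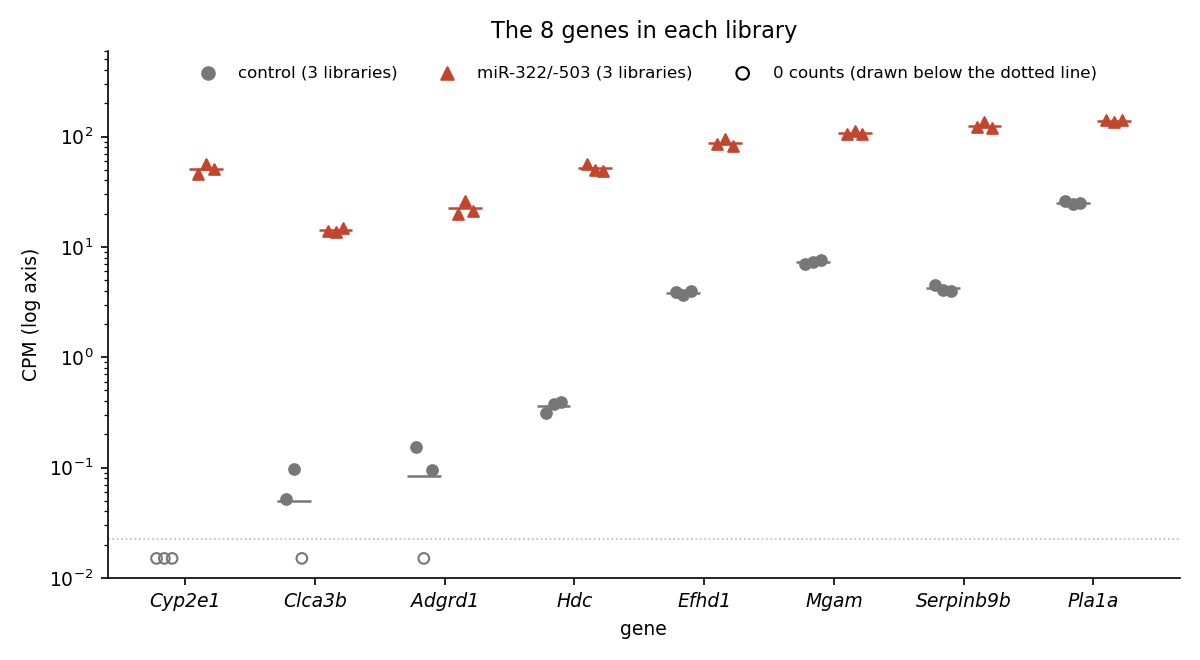
CPM (log axis) of the 8 genes in each library, with grey circles for the 3 control and red triangles for the 3 miR-322/-503 libraries, a line at each group mean, and open symbols for libraries with 0 counts. The control libraries spread from 0 (Cyp2e1) to 25.997 CPM (Pla1a, replicate 1), while the miR-322/-503 libraries lie between 13.6 and 141 CPM.

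Corrected for length, the levels in the miR-322/-503 libraries were ordered differently. Pla1a was highest, with 137, 131 and 128 TPM, followed by Efhd1 with 90.4, 104 and 84.3 TPM and Serpinb9b with 73.9, 80.2 and 66.1 TPM. Cyp2e1 had 50.3, 62.0 and 51.5 TPM and Hdc had 44.9, 39.6 and 35.8 TPM. Mgam followed with 21.5, 21.3 and 18.95 TPM, Adgrd1 with 8.79, 11.3 and 8.55 TPM and Clca3b with 7.94, 7.77 and 7.96 TPM. Neighbours in this order were apart in every library, so no library of a gene reached into the range of the next one. In the control libraries Pla1a stood far above the rest on the same scale, at 23.6 to 25.3 TPM, Efhd1 was at 3.69 to 4.24 TPM, Serpinb9b at 2.36 to 2.68 TPM and Mgam at 1.84 to 2.20 TPM.

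Among the 237 genes called higher whose miR-322/-503 mean reached 10 CPM, the 8 genes held ranks 1 to 4 (Cyp2e1, Clca3b, Adgrd1, Hdc), 9 (Serpinb9b), 12 (Efhd1), 21 (Mgam) and 54 (Pla1a) by log2 fold change. The choice was therefore not a strict list of the largest rises. At its lower end, Osbp2 (2.50, not chosen), Pla1a (2.47) and Rundc3a (2.45, not chosen) followed each other on the log2 scale. The genes between the chosen ones included Vgll2, a muscle cofactor of TEAD factors, which had 0.207, 0.0969 and 0.261 CPM against 23.6, 31.9 and 24.2 CPM. Itga4, the integrin alpha 4 chain, had 0.517, 0.388 and 0.521 CPM against 19.04, 19.4 and 21.97 CPM. The next were Tspan7 (a tetraspanin), Pclo (a presynaptic scaffold) and Stmn4 (a stathmin), with ratios of the CPM means of 34.0, 31.1 and 24.0.

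The promoters are shown because the genes rose together from separate places in the genome. Of the 8 genes, 6 matched a RefSeq promoter (250 bases before to 50 after the start, GRCm38.p6) and 4 are printed here, with the E-box CANNTG, the site of MyoD family and other helix-loop-helix factors, and the TATA box TATAAA in capitals.
Cyp2e1: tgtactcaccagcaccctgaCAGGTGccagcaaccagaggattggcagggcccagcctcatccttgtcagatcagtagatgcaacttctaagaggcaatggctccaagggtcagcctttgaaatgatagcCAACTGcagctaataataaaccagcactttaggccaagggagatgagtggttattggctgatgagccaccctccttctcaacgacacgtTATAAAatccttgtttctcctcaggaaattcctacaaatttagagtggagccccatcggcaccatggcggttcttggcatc
Mgam: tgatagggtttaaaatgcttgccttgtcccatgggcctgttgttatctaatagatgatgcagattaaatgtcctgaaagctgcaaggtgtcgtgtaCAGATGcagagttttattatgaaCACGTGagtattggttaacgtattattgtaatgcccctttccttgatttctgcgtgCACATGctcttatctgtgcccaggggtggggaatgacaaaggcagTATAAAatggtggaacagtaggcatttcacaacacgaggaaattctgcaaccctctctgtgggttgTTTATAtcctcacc
Hdc: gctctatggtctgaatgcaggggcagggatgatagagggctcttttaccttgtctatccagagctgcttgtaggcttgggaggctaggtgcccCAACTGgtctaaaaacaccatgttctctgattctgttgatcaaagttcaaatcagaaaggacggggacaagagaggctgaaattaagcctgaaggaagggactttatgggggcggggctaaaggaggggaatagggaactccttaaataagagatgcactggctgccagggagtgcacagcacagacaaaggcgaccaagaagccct
Efhd1: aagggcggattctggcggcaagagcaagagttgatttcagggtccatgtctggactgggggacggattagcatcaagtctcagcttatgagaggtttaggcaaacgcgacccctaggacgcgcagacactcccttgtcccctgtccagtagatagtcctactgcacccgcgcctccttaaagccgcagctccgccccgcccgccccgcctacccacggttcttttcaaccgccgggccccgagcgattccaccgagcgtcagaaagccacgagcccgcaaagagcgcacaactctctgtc
They cover chr7:140763569-140763868 (plus), chr6:40628581-40628880 (plus), chr2:126618629-126618928 (minus) and chr1:87264103-87264402 (plus). Cyp2e1 and Mgam each had TATAAA on the gene's strand, at positions -31 and -30 from the start, and Mgam had a further match on the other strand at 37. TATAAA on either strand occurred in 13.6% of all 32851 mouse promoters of the same length, and in 2 of these 6. An E-box was in 3 of the 6 (Cyp2e1 at -230 and -120, Hdc at -157, Mgam at -154, -131 and -75) and in 72.3% of all promoters. The form CAGCTG, preferred by MyoD, was in 0 of the 6 and in 16.3% of all. Of the other motifs searched on both strands, an AP-1 site (TGANTCA) was in Clca3b at -58 and in 7.81% of all promoters, and a MEF2 site was in Cyp2e1 at -111, not overlapping its E-boxes, and in 3.19% of all. These matches are descriptions of letters, not of bound sites.

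CpG content set Efhd1 apart. Its promoter held 24 CpG dinucleotides, more than 80.0% of all promoters, while the others held 7 (Clca3b), 5 (Mgam), 4 (Cyp2e1), 3 (Hdc) and 2 (Serpinb9b). Over all promoters the median was 7, with quartiles of 3 and 20. Promoters poor in CpG are typical of genes used in few tissues. DNA methylation was not analysed here.

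**Figure D2:**
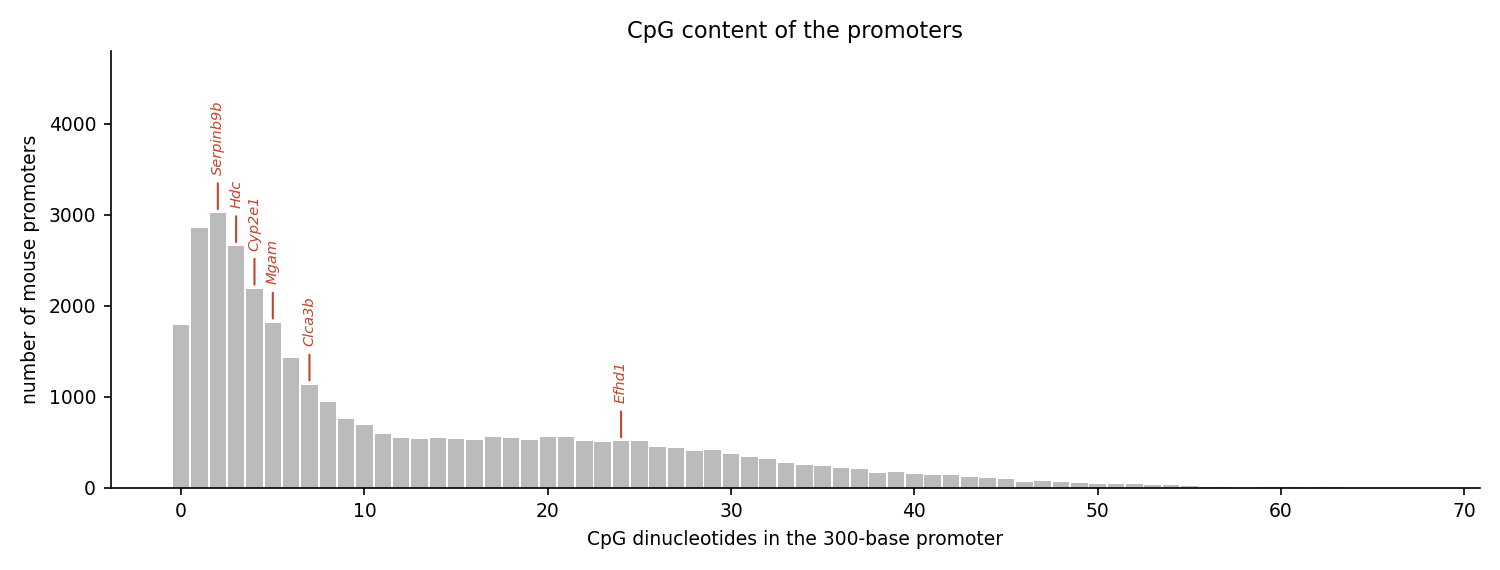
Number of mouse RefSeq promoters (vertical axis) by their count of CpG dinucleotides in 300 bases (horizontal axis), with the 6 matched genes marked in red. Serpinb9b, Hdc, Cyp2e1, Mgam and Clca3b lie between 2 and 7 CpG, at or below the median of 7, and Efhd1 lies at 24.

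The 3′UTRs were searched for the 7 bases that pair with each seed. In 7 of the 8 genes the longest annotated 3′UTR (GENCODE M21) held no match to either seed. Adgrd1, whose 3′UTR of 2040 bases is the longest of the 8, held 1 match to each, at bases 965 and 1983 of the 3′UTR, with the match in capitals.
Adgrd1, miR-322-5p: caccaagtctcTGCTGCTggccagggtgac
Adgrd1, miR-503-5p: cgatgatgagtCGCTGCTatagtgaagaca
Among the 13487 tested genes with a 3′UTR of at least 50 bases, 27.0% held a match for miR-322-5p, 5.72% for miR-503-5p and 30.01% for either. The 3′UTRs of the other 7 genes had 154 to 1924 bases, and Clca3b had the shortest.

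To see whether each rise was confined to the gene, the genes that start within 500 kb were tested. Of 259 such genes 111 passed edgeR's filter on low counts and 148 did not. Among the 111, 20 genes were called higher, or 18.0%, where 4.59% of all 18140 tested genes were called higher, and 5 were called lower, or 4.50%, where the share of all genes was 5.29%. In either direction these are 25 of 111 genes, against 9.87% of all tested genes. Of the 20, 13 passed the filter only through the miR-322/-503 libraries, since they did not reach its minimum of 0.125 CPM in all 3 control libraries, and 4 of these had no control count. They are 4 odorant receptor genes, Urah, Gm9419, Clca3a1, Clca3a2, Clca4b, Usp50, Inpp5d, Serpinb1c and Gm36099, and of the 5 genes called lower Zfp941 and Trbv12-2 passed only through the control. The share of 18.0% therefore supports nothing by itself. Without a filter 19 of 188 were called higher (10.1%, against 2.72% of all genes). With at least 10 counts required in every library, which drops genes that are silent in 1 group, 8 of 86 were called higher (9.30%, against 4.11%) and 3 lower (3.49%, against 4.73%), and without miR-322/-503 replicate 2, 8 genes were called lower. The 20 genes were unevenly placed, with 7 near Cyp2e1, 5 near Clca3b, 3 each near Serpinb9b and Pla1a, 1 each near Hdc and Efhd1 and 0 near Adgrd1 and Mgam. Of the 20, 5 were relatives of a chosen gene, 17 stayed under a mean of 10 CPM in the miR-322/-503 libraries and 11 had 10 control read pairs or fewer. Of the 16 tested genes that lie nearest on either side, 11 were not called, 4 were called higher and 1 was called lower. The median log2 fold change over the 111 genes was 0.22, and -0.01 over all tested genes.

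**Figure D3:**
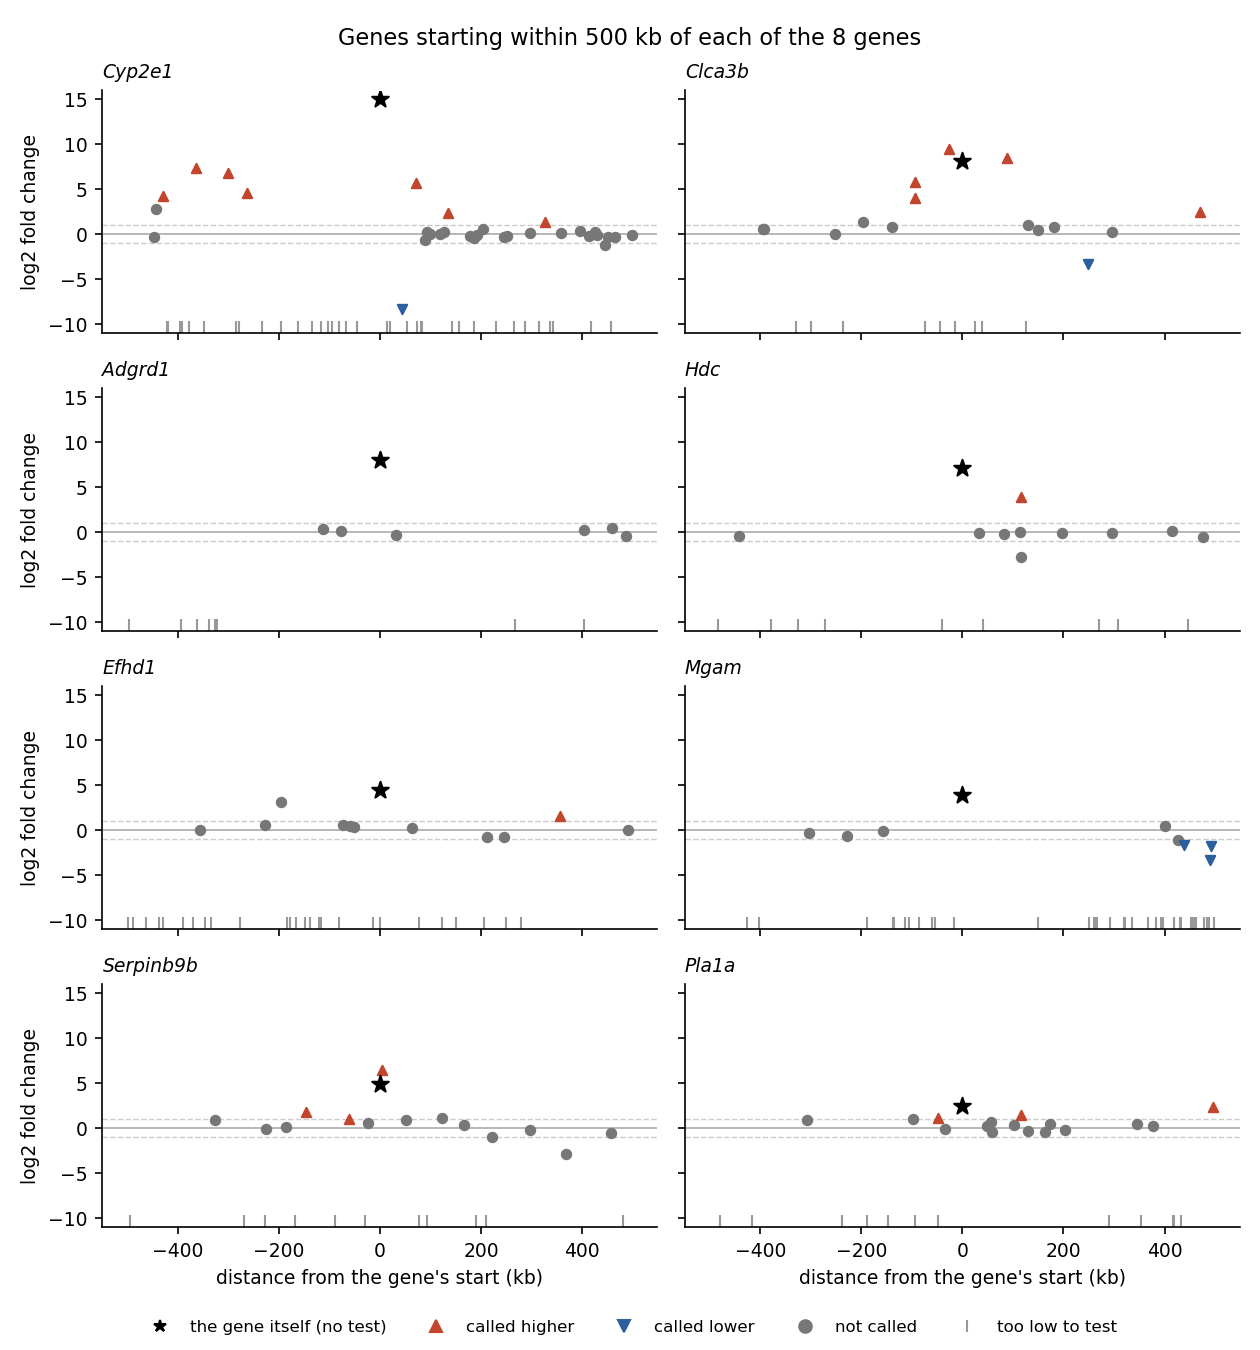
Log2 fold change (vertical axis) of the tested genes around each of the 8 genes against the distance between gene starts in kb (horizontal axis), with stars for the genes themselves, red triangles for genes called higher, blue triangles for genes called lower, grey circles for genes not called and ticks for genes too low to test. Called genes are 8 of 31 around Cyp2e1, 6 of 15 around Clca3b, 3 of 8 (all lower) around Mgam and 0 of 6 around Adgrd1. Over all tested genes 9.87% were called in either direction. Values of genes with no counts in 1 group depend on the prior count of the fit.

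The Clca cluster around Clca3b held 4 of the 6 called genes of its window. The 7 other genes of the Clca list all start within the 500 kb, and the cluster runs from Clca3a1 and Clca3a2 through Clca3b to Clca4c-ps, Clca4b, Clca4a, Clca1 and Clca2. Clca3a2, 3.13 kb from Clca3b, had 0 CPM in all control libraries and 1.54, 0.893 and 0.971 CPM with miR-322/-503, at least 7.70-fold higher. It passed the filter through the miR-322/-503 libraries alone, as did Clca3a1 and Clca4b, so no p is given for them. Clca3a1 had 0.0646, 0 and 0 CPM against 1.44, 0.747 and 1.60 CPM, a ratio of 58.5 with a 95% counting interval from 13.5 to 3106. Its control signal came from replicate 1 alone, and its fitted log2 fold change ran from 5.25 to 9.70 with 1 library left out. Clca4b, 61.6 kb away on the other side, had 0 CPM in the control and 0.829, 0.413 and 0.372 CPM, at least 3.65-fold higher.

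At the far end the direction turned. Clca2 had 4.99, 6.68 and 6.23 CPM in the control and 0.577, 0.533 and 0.678 CPM with miR-322/-503, a log2 fold change of -3.32 (edgeR, adjusted p = 2.28e-05). Clca1 and Clca4a, which lie between, did not pass the test, with log2 fold changes of 0.84 and 1.05 (adjusted p = 0.0624 and 0.320 in the same edgeR test). Clca1 was called without miR-322/-503 replicate 3 (1.03, adjusted p = 0.0371 in edgeR). Of 6 tested Clca genes 3 were called higher and 1 lower, where 4.59% and 5.29% of all genes were, but all 3 had passed only through the group where they are high and their count supports nothing. The fitted median was 3.44 on the log2 scale, and 1.46 with Clca3a2 and Clca4b set at their bounds. Clca3a1 and Clca3a2 share 15.7% of their 75-base stretches with other genes, mostly each other, and Clca3b shares 2.13%, so the split of reads between the former is uncertain. Clca4b shares 12.6% and Clca4a 29.5%, so the split of reads is uncertain for these genes too. In each miR-322/-503 library Clca3b was above every relative on the TPM scale. Col24a1, a collagen gene whose start is 470 kb from that of Clca3b, had 1.05, 0.618 and 1.09 CPM against 5.08, 5.84 and 4.39 CPM.

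**Figure D4:**
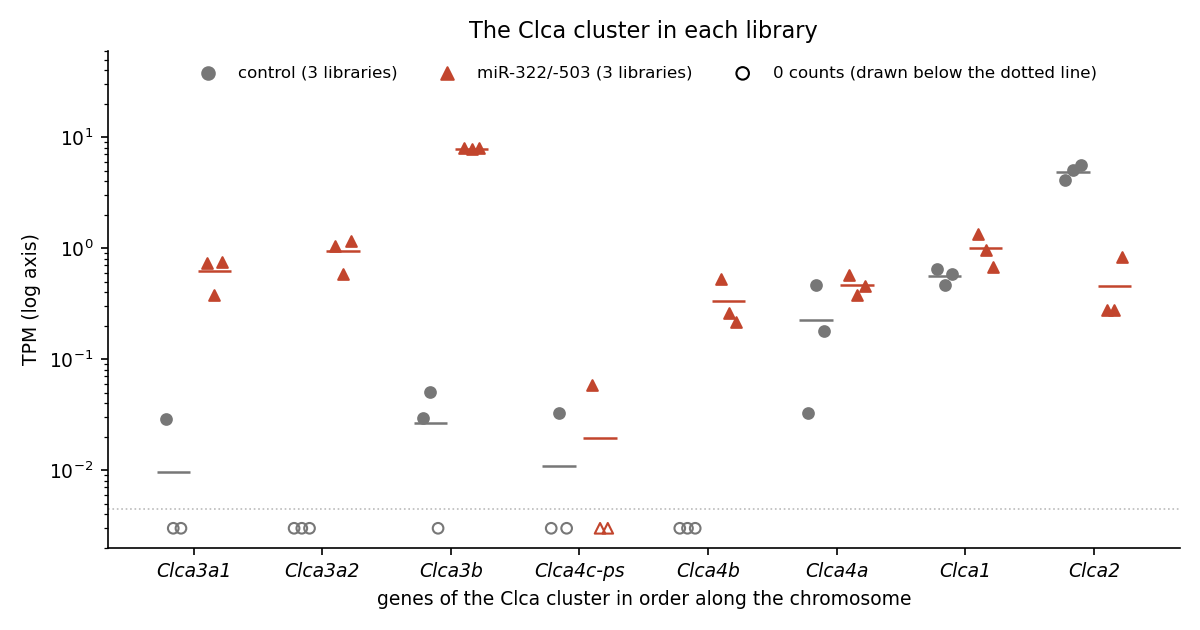
TPM (log axis) of the Clca genes in their order along the chromosome, with grey circles for control and red triangles for miR-322/-503 libraries, a line at each group mean, and open symbols for libraries with 0 counts. Clca3b is highest with miR-322/-503 at 7.77 to 7.96 TPM, its neighbours Clca3a1, Clca3a2 and Clca4b rise from 0 or close to it, and Clca2 falls.

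The window of Cyp2e1 held 31 tested genes, of which 7 were called higher (22.6%, against 4.59% of all genes) and 1 lower (3.23%, against 5.29%). Only 2 of the 7 would have passed the filter in the control libraries too. The next tested gene above it, Zfp941, a zinc finger gene 32.5 kb away, went the opposite way, from 0.465, 0.484 and 0.462 CPM to 0 CPM in all miR-322/-503 libraries, at least 3.17-fold lower. It passed the filter through the control libraries alone, so no p is given. Below it lies a block of odorant receptor genes, 22 in the window, of which 17 were too low to test and 4 were called higher. The tested ones passed the filter through the libraries where they were higher, so their count supports nothing and no p is given for the call. Olfr536, 256 kb away, had 0, 0 and 0.272 CPM against 1.61, 2.63 and 2.87 CPM, a ratio of 26.1 with a 95% counting interval from 10.6 to 65.3. Its control signal came from replicate 3 alone, and its fitted log2 fold change ran from 4.07 to 10.6 with 1 library left out. The call of Olfr536 was lost with DESeq2 (adjusted p = 0.0818). Olfr531 and Olfr533 had 0 CPM in the control and at most 0.372 and 0.226 CPM, at least 1.72-fold and 1.17-fold higher. The call of Olfr533 was lost with a replicate block (edgeR, adjusted p = 0.0616), and both calls were lost with limma on log2(TPM + 1) (adjusted p = 0.0673 for Olfr533 and 0.113 for Olfr531). The other 23 tested genes in the window were not called, and the median log2 fold change of the window was 0.09.

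A gene with a higher level lay just past the limit. 5830411N06Rik starts 516 kb from Cyp2e1 and had 2.97, 3.79 and 1.67 CPM in the control and 66.7, 48.0 and 55.6 CPM with miR-322/-503, a log2 fold change of 4.34. It was named for a profile among the 5 most like the median of the 8 over the same libraries, so no p is given. With 1 Mb in place of 500 kb, 26 of 225 tested genes were called higher (11.6%, against 18.0% within 500 kb and 4.59% of all genes) and 10 lower (4.44%) over all 8 windows.

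Around Adgrd1 no tested gene passed the fold limit. Its 6 tested neighbours had log2 fold changes between -0.36 and 0.49, and 0 of them were called by edgeR or by DESeq2. At an adjusted p under 0.05 alone 2 were higher, where 13.2% of all genes were. At an unadjusted p under 0.05 in edgeR 3 were higher and 0 lower. The share of all genes at an unadjusted p was not computed, here and below. It is no smaller than the 13.2% higher and 15.5% lower at an adjusted p under 0.05. Ran, the nuclear transport GTPase 72.4 kb away, had 266, 255 and 248 CPM against 284, 270 and 280 CPM (log2 fold change 0.12, adjusted p = 0.170 in edgeR). Rps16-ps2, a pseudogene inside Adgrd1 on the opposite strand, had 23.9, 32.2 and 27.5 CPM against 19.9, 24.1 and 27.3 CPM, and its groups overlapped. The median log2 fold change was 0.17 in this window and also 0.17 over the 1175 other tested genes on chromosome 5.

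Around Hdc, 1 of 10 tested genes was called higher (10%, against 4.59% of all genes) and 0 lower (against 5.29%) in edgeR. In the same test 3 were lower at an unadjusted p under 0.05, and DESeq2 called 2 lower. Gabpb1, which begins 8.14 kb beyond Hdc and encodes a subunit of the GABP factor, had 18.5, 21.0 and 19.4 CPM against 18.9, 21.3 and 18.5 CPM (log2 fold change -0.01, adjusted p = 0.961 in edgeR). Dtwd1 on the other side had a log2 fold change of -0.45 and was not called. The called gene, Usp50, had 0.103, 0.0363 and 0.130 CPM in the control and 0.178, 2.24 and 1.95 CPM with miR-322/-503. Replicate 1 with miR-322/-503 thus lay near the control, and the call was lost when any of 4 libraries was left out. Usp50 passed the filter through the miR-322/-503 libraries alone, so no p is given. Usp50 overlaps Usp8 on the opposite strand, and Usp8 was at 136 CPM in both groups. On the same strand Usp50 also overlaps the pseudogene Gm10774, which was not called and had means of 0.808 and 0.110 CPM. Usp50 shares 9.71% of its 75-base stretches with other genes, so the split of reads is uncertain for Usp50 too.

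Near Efhd1, the acetylcholine receptor genes Chrnd and Chrng had log2 fold changes of 0.56 and 0.50 (edgeR, adjusted p = 0.000917 and 0.00181) and stayed under the fold limit. The nearest genes, Eif4e2 and Gigyf2, had 0.40 and 0.24 on the log2 scale. Inpp5d, an inositol phosphatase of blood cells, was the only called gene of 11 tested (9.09%, against 4.59% of all genes called higher). Its levels were 0.336, 0.375 and 0.118 CPM against 1.08, 0.653 and 0.798 CPM. Since Inpp5d passed the filter through the miR-322/-503 libraries alone, no p is given, and its call was lost whichever library was left out. The median of this window was 0.40 and that of the remaining genes of chromosome 1 was 0.03.

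Around Mgam the called genes were lower. Of its 8 tested neighbours 0 were called higher by edgeR or DESeq2, and 0 were higher at an unadjusted p under 0.05. In edgeR 3 were called lower (37.5%, against 5.29% of all genes). These were T cell receptor beta variable segments with starts 438 to 493 kb away. Trbv6 had 1.67, 1.95 and 2.18 CPM in the control and 0.682, 0.467 and 0.745 CPM with miR-322/-503 (log2 fold change -1.61, adjusted p = 0.00308 in edgeR). Trbv12-2 and Trbv13-2 were below 1 CPM in every library, and each call was lost without some single library. For Trbv13-2 the adjusted p went up to 0.114 in edgeR. Trbv12-2 passed the filter through the control libraries alone, so no p is given for it. The nearest tested genes, Ssbp1 and 2210010C04Rik, lie 144 kb and 261 kb away and were not called (-0.12 and 0.53 on the log2 scale). The window median was -0.89.

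Serpinb9b sits in a cluster of its own relatives. Serpinb9, 9.46 kb away and itself an inhibitor of granzyme B, had 53.5, 52.6 and 50.8 CPM against 78.0, 73.1 and 89.8 CPM, a log2 fold change of 0.62 (SE 0.08, adjusted p = 0.00126 in edgeR) that stayed under the fold limit. Serpinb6b, 48.3 kb away, had 7.86, 9.94 and 9.57 CPM against 17.9, 18.0 and 19.9 CPM and was called at a log2 fold change of 1.03, which went under the fold limit without control replicate 1 (0.93) and without miR-322/-503 replicate 3 (0.98). The groups did not overlap for these genes, as was so in the upward direction for 21.6% of all tested genes. The ratios of Serpinb9 and Serpinb6b, 1.54 and 2.04, were below the 29.9 of Serpinb9b.

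Serpinb1c had 0.0775, 0.436 and 0.249 CPM against 0.923, 0.907 and 0.864 CPM. It passed the filter through the miR-322/-503 libraries alone, so no p is given, and its call was lost when any of 4 libraries was left out. Gm36099, an antisense transcript inside Serpinb9b, had 0, 0 and 0.0355 CPM against 1.08, 1.33 and 1.14 CPM. It shares 6.61% of its 75-base stretches with Serpinb9b, and since no strand setting is given, reads of the pair cannot be told apart there. The window median was 0.51, and that of the remaining genes of chromosome 13 was 0.15.

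Near Pla1a, 3 of 16 tested genes were called higher (18.75%, against 4.59% of all genes) and 0 lower (against 5.29%) by edgeR. DESeq2 gave the same counts, and 3 genes were lower at an unadjusted p under 0.05 in edgeR. Cox17, a copper chaperone for cytochrome oxidase 43.4 kb away, had 20.9, 19.6 and 24.9 CPM against 47.3, 43.1 and 51.7 CPM (log2 fold change 1.12, SE 0.11, adjusted p = 0.000323 in edgeR), and its call was lost with limma, at 0.84 on log2(TPM + 1) and 0.85 on log2(TPM + 0.1). Igsf11, an adhesion protein gene at the edge of the window, had 3.04, 3.25 and 2.45 CPM against 14.99, 15.8 and 16.3 CPM, a ratio of 5.39 that is close to the 5.52 of Pla1a. Between them, the nearest genes Popdc2 and Adprh had log2 fold changes of -0.07 and 0.25 and were not called. Gm15953, under 1 CPM throughout, lost its call when any of 5 libraries was left out (adjusted p up to 0.115 in edgeR).

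The relatives and partners of the 8 genes did not move as a body. Of 169 genes in the lists, 81 were tested, 10 were called higher (12.3%, against 4.59% of all genes) and 9 lower (11.1%, against 5.29%), and the median log2 fold change was 0.11. With at least 10 counts in every library 5 of 65 were called higher (7.69%, against 4.11% of all genes) and 9 lower (13.8%, against 4.73%). Limma on log2(TPM + 1) called 3 of 81 higher (3.70%, against 2.16%) and 8 lower (9.88%, against 3.11%). Of the 10 genes called higher, 5 had passed the filter only through the miR-322/-503 libraries. Of the 10, 5 are the Clca and Serpinb neighbours already given. The Cyp2 family and its electron donors gave 0 higher and 2 lower of 10 tested with both edgeR and DESeq2. The 2 lower are 20%, against 5.29% of all genes in edgeR. At an unadjusted p under 0.05 in edgeR 2 were higher. In this list 34 of 51 genes had no count in any library. Cyp2d22 had 11.6, 11.04 and 10.9 CPM against 5.14, 3.77 and 5.76 CPM (log2 fold change -1.20), and Cyb5a, cytochrome b5, fell by 1.07 on the log2 scale (adjusted p = 0.00134 and 0.0103 in edgeR). Without control replicate 2, Cyb5a was at -0.74 and no longer called, which left 1 of 10 lower.

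In the histamine list 2 of 7 tested genes were called higher (28.6%, against 4.59% of all genes), 1 of which passed the filter only through the miR-322/-503 libraries. Hnmt, the methyltransferase that inactivates histamine inside cells, had 0 CPM in all control libraries and 1.98, 1.37 and 1.78 CPM with miR-322/-503, at least 11.6-fold higher. Hnmt is the gene that passed so, and no p is given. It lies far from Hdc on the same chromosome, at chr2:24002910-24049394. Maob, which oxidizes methylated histamine, had 0.543, 0.303 and 0.237 CPM against 0.787, 0.934 and 1.38 CPM, and its adjusted p of 0.0292 rose to at most 0.0999 without a single library. The other 5 tested genes were not called, among them Slc18a2, the vesicular transporter for histamine (log2 fold change 0.95, adjusted p = 0.0726 in edgeR), and the receptor gene Hrh1 (1.56, adjusted p = 0.203). Both were called without control replicate 3 (1.29 and 3.13, edgeR adjusted p = 0.0288 and 0.0166), and the count of called genes in the list ran from 1 to 3 with 1 library left out. Hrh2, Hrh4 and Aoc1 had no counts in any library.

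Of 15 tested members of the adhesion receptor list 4 were called lower (26.7%, against 5.29% of all genes) and 1 higher (6.67%, against 4.59%), 10 were not called, and the median log2 fold change was -0.10. Adgrl1, latrophilin 1, fell from 86.4, 103 and 86.0 CPM to 28.2, 31.3 and 26.1 CPM, a log2 fold change of -1.69 (SE 0.10, adjusted p = 2.62e-05 in edgeR). Adgrg3 and Adgrg1 (GPR56) fell by 1.32 and 1.09 on the log2 scale, and Adgrg1 went under the fold limit without control replicate 1 (-0.94) and without miR-322/-503 replicate 1 (-0.95). Adgrf3, the gene called higher, had a log2 fold change of 1.09 and lost its call when any of 5 libraries was left out (adjusted p up to 0.102 in edgeR).

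In the clade B serpin list, 3 of 15 tested genes were called higher (against 4.59% of all genes) and 0 lower with edgeR and DESeq2 alike. With 1 library left out 1 to 3 were called higher, fewest without miR-322/-503 replicate 3, and up to 1 lower. Of the 15, 2 were lower at an unadjusted p under 0.05, and 7 were higher and 2 lower at an adjusted p under 0.05 alone, where 13.2% and 15.5% of all genes were. Serpinb2, which lies on chromosome 1 and inhibits plasminogen activators, had 1.28, 1.95 and 1.53 CPM against 6.68, 4.95 and 7.50 CPM, a log2 fold change of 2.01. Of the lipase list, 1 of 6 tested genes was called higher (16.7%, against 4.59% of all genes). This gene, Lpl (lipoprotein lipase), had 3.15, 3.34 and 4.10 CPM against 14.2, 16.2 and 15.2 CPM. Its log2 fold change was 2.10 (SE 0.13, adjusted p = 3.03e-05 in edgeR). The glycosidase list held 1 called gene of 6 tested, and it was lower (16.7%, against 5.29% of all genes). This was the amylase gene Amy1, which overlaps Rnpc3 and fell by 1.45 on the log2 scale. Sis and Treh, the other brush border enzymes beside Lct, had no counts. In the EF-hand and mitochondrial calcium list 0 of 16 genes were called higher by edgeR or DESeq2, where edgeR called 4.59% of all genes higher. At an adjusted p under 0.05 alone 6 were higher, where 13.2% of all genes were, and 7 at an unadjusted p in edgeR. The carrier Slc25a23, at -2.16 on the log2 scale, was the 1 gene called lower (6.25%, against 5.29% of all genes).

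**Figure D5:**
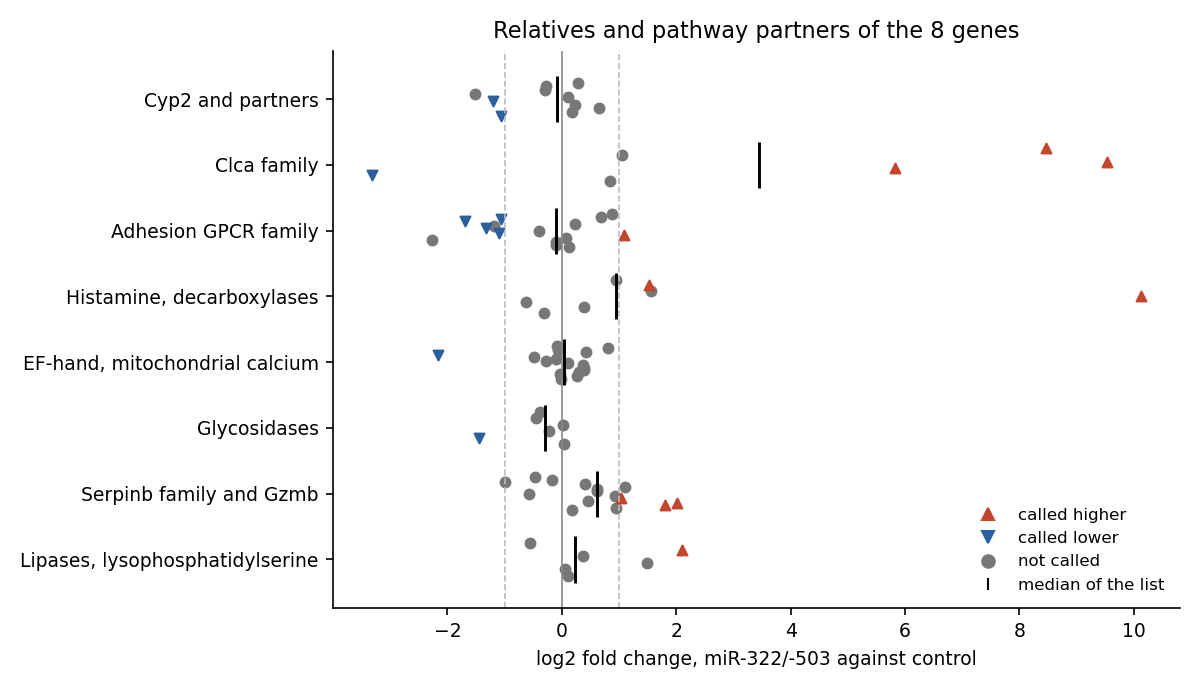
Log2 fold change (horizontal axis) of the tested genes in the 8 lists of relatives and partners, with red triangles for genes called higher, blue triangles for genes called lower, grey circles for genes not called and a black line at each list's median. The Clca list lies furthest to the right (fitted median 3.44), Hnmt stands apart in the histamine list, and the adhesion receptors have 4 of their 5 called genes on the left.

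Markers of the cell types in which these genes are best known were measured beside them. Of 10 hepatocyte markers 0 passed the filter and 8, including Alb, Apoa1 and Ttr, had no count in any library, and the summed level was 0 to 0.351 CPM in the control and 0 CPM with miR-322/-503. Mast cell markers summed to 22.005 to 25.7 CPM in the control and 13.5 to 17.5 CPM with miR-322/-503, with Cpa3, Mcpt4, Fcer1a and Mrgprb1 at 0. Nearly all of this sum was Gata2, a factor also used in other cells, at 25.5, 21.8 and 24.3 CPM against 15.5, 16.9 and 13.4 CPM. Of the 2 tested genes 0 were called by edgeR or DESeq2, and 1 was lower at an unadjusted p under 0.05. Enterocyte markers summed to 5.27 to 5.89 and 5.47 to 6.94 CPM, with Cdx2, Fabp2 and Apoa4 at 0, and 0 of 3 tested genes were called by either tool or passed an unadjusted p of 0.05.

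Leukocyte markers summed to 3.64 to 5.08 and 3.86 to 4.28 CPM, with Cd3e, Adgre1, Nkg7 and Tyrobp among those at 0. Of 3 tested genes 1, Lyz2, was called lower (33.3%, against 5.29% of all genes). With 0, 0 and 0.0665 CPM in the miR-322/-503 libraries, Lyz2 passed the filter through the control alone, so this count supports nothing. The trophoblast list summed to 0.642 to 1.21 CPM in the control and 2.99 to 4.19 CPM with miR-322/-503. Both of its tested genes, Prl2c2 and Psg17, were called higher, where 4.59% of all genes were, while Prl3d1, Tpbpa, Gcm1 and Prl3b1 were at 0. Psg17, at 0.207, 0.0484 and 0.189 CPM in the control, passed the filter through the miR-322/-503 libraries alone, so this count supports nothing by itself. The call of Psg17 was lost whichever library was left out. In the muscle list 2 of 12 genes were called higher (16.7%, against 4.59% of all genes), Tnnt3 and Mef2c, and 8 were higher and 1 lower at an adjusted p under 0.05 alone, where 13.2% and 15.5% of all genes were. Without control replicate 1, Tnnt3 was at 0.96 on the log2 scale and no longer called. Mef2c, a myogenic factor, had 2.49, 1.61 and 1.60 CPM against 20.8, 22.3 and 26.8 CPM, and Myog fell by 0.74 on the log2 scale. The part of these shifts in the rises of the 8 genes was not tested.

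The genes most like the 8 were sought by the distance between log2(CPM + 0.1) profiles over the 6 libraries and the median profile of the 8. The 5 nearest were Mamdc2 (distance 1.88), 5830411N06Rik (2.12), L1cam (2.26), Krt19 (2.32) and Tspan7 (2.46), while the 8 genes themselves lay between 2.75 (Efhd1) and 7.55 (Pla1a) from their own median. Mamdc2, which encodes a secreted matrix protein, had 2.69, 1.76 and 3.04 CPM against 47.6, 50.5 and 49.1 CPM. L1cam, a neural adhesion molecule, had 2.03, 2.33 and 3.26 CPM against 36.7, 39.8 and 36.6 CPM. Krt19, a keratin of simple epithelia, had 2.44, 2.56 and 2.10 CPM against 37.4, 32.8 and 33.3 CPM. All groups of these genes were apart, as they were in the upward direction for 21.6% of all tested genes.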

How the data were processed

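RNA-seq libraries (3 control, 3 miR-322/-503, day 4) were grouped by their GEO labels. The authors used Trim Galore for trimming, HISAT2 for alignment to GRCm38 and StringTie for quantification (versions, annotation and strand setting are not given in the sources used here). They deposited 1 table of estimated counts, which are whole numbers and not normalized, and for each library a table of coverage (signal per base), FPKM and TPM. TPM of genes listed more than once in a table (7 to 13 genes) was summed, and coverage served only to find the counts per read pair.

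Estimated counts were tested with edgeR 4.0.16 (filterByExpr, TMM, glmQLFit, glmQLFTest, Benjamini-Hochberg adjustment over 18140 genes) in R 4.3.3. No 2 replicates agreed within sampling noise (chi-square per degree of freedom 13.6 to 19.6). On simulated data edgeR recovered 198 of 200 genes shifted by 2 on the log2 scale in the miR-322/-503 comparison, with 1 false call among 17367 genes. The shifted genes were drawn from those with a control mean above 1 CPM, and the simulated spread followed the trend over genes. This recovery therefore does not cover genes that are lower or absent in the control. Of the 55421 identifiers, 55240 were found in GENCODE M21, the source of exons, 3′UTRs and shared 75-base stretches, and promoters and microRNAs are from RefSeq. Windows counted a gene when its start lay within 500 kb of the start of a chosen gene.

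The 8 genes and all lists were chosen with earlier results of these data known. Named are the 8 genes, the nearest tested gene on each side, up to 3 called genes per window and list by absolute log2 fold change, the 5 most similar profiles and up to 5 genes ranked between the 8. Clca1, Clca2, Clca4a, Col24a1, Chrnd, Chrng, Slc18a2, Hrh1, Adgrf3, Osbp2, Rundc3a, Gata2 and the marker genes given with values were named after their values were seen. Alternatives were DESeq2 1.42.0, RLE size factors, other filters, limma 3.58.1 on log2(TPM + 1) and log2(TPM + 0.1), a replicate block, other windows, leaving out each library and counts per read pair, the last chosen after seeing the data.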

Additional observations from a re-analysis of the deposited data

How the results depend on the processing

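Directions of the 8 genes held under every alternative that kept them, while their fitted log2 fold changes shrank with the pseudocount (Cyp2e1 5.79 with log2(TPM + 1)). The filter of at least 10 counts in every library dropped Cyp2e1, Clca3b and Adgrd1, so their directions were not evaluated there. With limma on log2(TPM + 1), which understates low genes, 391 genes were called higher and 564 lower over all genes, and 7 neighbours, 3 relatives and 2 markers were called higher. With at least 10 counts in every library, which tests fewer genes, 8 neighbours and 5 relatives were called higher and 3 neighbours and 0 markers lower (edgeR). Within 250 kb, 12 neighbours were called higher and 2 lower, and within 1 Mb 26 higher and 10 lower. Counts per read pair gave 3 neighbours called lower. Leaving out each library gave 715 to 806 genes higher and 886 to 965 lower, 16 to 23 neighbours higher and 4 to 8 lower, 7 to 13 relatives higher and 8 to 10 lower, and 2 to 3 markers higher. The cause was not tested.

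Libraries with the same replicate number were not treated as pairs (correlations of deviations 0.131, 0.0687 and 0.0451, although each library correlated best with its own number). A replicate block gave 747 genes called higher, 893 called lower, and 17 neighbours higher with 3 lower.

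Signs turned for 2 genes close to 0. Gabpb1 was at 0.00323 with RLE size factors, 0.000513 with counts per read pair and between -0.0741 and 0.0392 across libraries left out, and Popdc2 was between -0.305 and 0.146. Across all named genes other than the 8, 783 values kept their side of the call (adjusted p and fold), 77 lost it and 3 gained it. About 4 counts per read pair limit genes under 1 CPM.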
